A study of Mus musculus with 18 samples.

Results

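The nuclear-encoded subunits of the mitochondrial respiratory chain were followed across 6 mouse cell populations. Genes were taken by symbol alone: Nduf genes with the letter a, b, c, s or v and a number (complex I), *Sdha*, *Sdhb*, *Sdhc* and *Sdhd* (complex II), Uqcr genes (complex III), Cox4 to Cox8 genes with a letter (complex IV) and Atp5 genes with a letter (complex V, the ATP synthase). These symbols matched 83 of the 20202 gene rows found in any of 3 count tables, with 82 of 17173 rows in the fresh bone table, 81 of 16966 in the bone chip table and 83 of 19781 in the ESC table. Of the 83 genes, 34 belong to complex I, 4 to complex II, 8 to complex III, 20 to complex IV and 15 to complex V. *Ndufa4* and its relative *Ndufa4l2* carry a complex I name but were counted with complex IV, where the *Ndufa4* protein is now placed. *Atp5s* and *Atp5sl* also match the symbols, although they are not subunits of the chain. They are included wherever the 83 symbols are counted together as chain genes, and left out of the counts by complex. Low counts removed *Cox6a2*, *Cox7a1*, *Cox8b* and *Cox8c* from the tests in fresh bone, *Cox6a2* in bone chips and *Cox7b2* and *Cox8c* in the ESC table, so 78, 80 and 81 of the genes were tested.

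The chain sits in the inner mitochondrial membrane. Complexes I and II pass electrons from NADH and succinate to ubiquinone, complex III passes them on to cytochrome c, and complex IV (cytochrome c oxidase) reduces oxygen to water. Complexes I, III and IV pump protons, and complex V makes ATP from the gradient. Complex IV is the one whose nuclear subunits come most often as isoforms: *Cox4i2* is the isoform of subunit 4 known from lung and low oxygen, *Cox6a2*, *Cox7a1* and *Cox8b* are the heart and skeletal muscle isoforms (*Cox7a1* and *Cox8b* also of brown fat), and *Cox6b2* is the testis isoform. Osteoblasts are known to use both glycolysis and oxidative phosphorylation while they make bone matrix.

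Poly-A RNA was sequenced from cells of Col2.3GFP mice and of embryonic stem cell lines with that transgene. In it a fragment of the *Col1a1* promoter drives GFP in maturing cells of the osteoblast lineage. Bone GFP+ (hi) cells were set against bone GFP- cells, both sorted directly from long bones without culture. Bone chip GFP+ (hi) cells were set against bone chip GFP- cells, both sorted from bone chip cultures after osteogenic differentiation. ESC-OB GFP+ cells, sorted after osteogenic differentiation of embryonic stem cells that carry the same transgene, were set against embryonic stem cells (ESC), and a treatment label gives osteogenic differentiation for the ESC as well, although their title and cell type name them as stem cells. All 6 populations carry the transgene or derive from carriers as far as the labels and the study's methods say. Those methods do not say that the ESC were sorted, so sorting may also differ in that comparison. GFP- cells were sorted only by lack of the signal, and their make-up can differ between the bone sources. Ages were not given in the sources used here. Each population has 3 libraries. Whether these came from separate cultures or animals is not stated, and the p-values therefore cover the spread between libraries alone, which may be technical. The 3 bone GFP+ (hi) libraries cannot all be repeats of 1 sample, since they differ in sex by the counts given below.

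Libraries held 21425212 to 43874837 counts in bone GFP+ (hi) cells, against 5482065 to 6468750 in bone GFP- cells. They held 13228266 to 15221973 in bone chip GFP+ (hi) cells, against 9829832 to 17553194 in bone chip GFP- cells. They held 20680956 to 26601417 in ESC-OB GFP+ cells, against 4920977 to 21215099 in ESC. Osteoblast markers were higher in bone GFP+ (hi) and bone chip GFP+ (hi) cells (8 of 8 each). In ESC-OB GFP+ cells 5 of 6 tested were higher and 1 was lower (-3.09 log2). *Col1a1* took 0.324 to 0.774% of counts in ESC-OB GFP+ libraries, against 12.1 to 14.4% in bone chip GFP+ (hi) libraries. Chondrocyte markers summed to 1814 to 4618 CPM in bone GFP+ (hi) libraries, against 97118 to 198581 CPM in bone GFP- libraries, where 6 of 6 were lower in the GFP+ (hi) cells. In the same bone GFP- libraries, erythroid markers summed to 10.8 to 16.8 CPM, endothelial to 0.915 to 1.99 CPM and B lymphoid to 3.86 to 81.9 CPM. Neutrophil markers summed to 4.58 to 210 CPM there, and macrophage and osteoclast markers to 64.3 to 92.4 CPM. Bone GFP+ (hi) libraries also held stem cell transcripts (6 markers, 14.5 to 19.3 CPM summed, against 0.117 to 0.660 CPM in bone GFP- libraries, where *Esrrb* and *Zfp42* were at 0). Counts on chromosome Y were 6, 913 and 9 in bone GFP+ (hi) replicates 1 to 3, against 727, 1167 and 625 in bone GFP- libraries, and at most 2 in the other 12. *Xist*, a transcript of female cells, had 741, 22 and 348 counts in bone GFP+ (hi) libraries, against 0, 2 and 10 in bone GFP- libraries. Bone chip libraries had 3068 to 11573. ESC-OB GFP+ libraries had 1175, 1684 and 1050, against 66, 435 and 72 in ESC libraries, in libraries of unlike depth. By these counts bone GFP+ (hi) replicates 1 and 3 and the bone chip libraries were female. Bone GFP+ (hi) replicate 2 and all bone GFP- libraries were male. Replicates of a group differed in their counts by 6.40 to 118 times the sampling noise (chi-square over its degrees of freedom), except for ESC replicates 2 and 3, for which the ratio was 1.62. That pair also differed by more than sampling noise, so its libraries are not copies of each other. The ratio cannot tell whether ESC replicates 2 and 3 are separate samples or repeat libraries of 1 sample. All 18 libraries were kept, and the ESC comparison would rest on fewer independent samples if these are repeats. The part that these differences between libraries play in the results was not tested.

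Fewer reads fell on chain genes in GFP+ (hi) than in GFP- libraries of both bone sources. The 83 genes took 0.251 to 0.279% of all counts in bone GFP+ (hi) libraries, against 0.537 to 0.643% in bone GFP- libraries, and the groups did not overlap. Collagen transcripts fill much of the GFP+ (hi) libraries: *Col1a1* alone took 36.2 to 37.5% of counts there, against 0.805 to 1.59% in bone GFP- libraries. When *Col1a1*, *Col1a2* and the ribosomal RNA gene *Rn45s* were left out of the totals, the shares were 0.556 to 0.586% in bone GFP+ (hi) libraries and 0.554 to 0.654% in bone GFP- libraries, which overlap. In bone chips the chain genes took 0.305 to 0.340% of all counts in GFP+ (hi) libraries, against 0.410 to 0.468% in GFP- libraries, and without those 3 genes 0.464 to 0.502% and 0.498 to 0.555%, with an overlap. ESC-OB GFP+ libraries gave 0.949 to 1.15% and ESC libraries 1.08 to 1.11% of all counts, also with an overlap. By complex, the ESC-OB GFP+ libraries were lower for complex V (0.324 to 0.371%, against 0.487 to 0.493% in ESC) and higher for complex I (0.271 to 0.340%, against 0.221 to 0.238% in ESC), and neither overlapped. These shares depend on what else fills a library (*Rn45s* took 0.290 to 0.690% of counts in ESC-OB GFP+ libraries, against 5.72 to 7.95% in ESC libraries). Summed on the TMM scale used for the levels of single genes, complex I overlapped (2516 to 3214 CPM in ESC-OB GFP+ libraries, against 2309 to 2608 CPM in ESC libraries) and complex V did not (3013 to 3502 CPM, against 5007 to 5736 CPM in ESC libraries). On that scale all chain genes summed to 3679 to 4055 CPM in bone GFP+ (hi) libraries, against 4031 to 4182 CPM in bone GFP- libraries, which overlap, and in bone chips the order turned, with 3811 to 4125 CPM in GFP+ (hi) libraries, against 3498 to 3781 CPM in GFP- libraries. With 3 against 3 libraries an exact two-sided permutation test of a share cannot go below p = 0.1. In bulk RNA, fewer cells of a type and less RNA per cell cannot be told apart.

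Levels are given as CPM (counts scaled to a fixed library total) adjusted by the trimmed mean of M values (TMM) within a table, a scaling that allows for a few very abundant genes. They compare libraries for 1 gene and not genes with each other, since they are not per transcript length. Fold changes are log2, GFP+ (hi) over GFP- or ESC-OB GFP+ over ESC, from edgeR's quasi-likelihood test, given ± their standard error. A gene was called at an adjusted p (Benjamini-Hochberg over all genes of the table) under 0.05.

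Most chain genes were not called between GFP+ (hi) and GFP- cells of either bone source, and those called in ESC-OB GFP+ cells went up and down in near-equal numbers. In fresh bone 6 of 78 tested were called higher and 8 lower in GFP+ (hi) cells, against 41.7% of all 12559 genes called (19.5% higher and 22.1% lower). The median log2 fold change was 0.01 for the chain genes and -0.00 for all genes. In bone chips 14 of 80 were higher and 5 lower, against 43.5% of all 12841 genes (20.4% higher and 23.1% lower), with medians of 0.11 and -0.04. In ESC-OB GFP+ cells 25 of 81 were higher and 23 lower, against 77.7% of all 15417 genes (43% higher and 34.7% lower), with medians of -0.02 and 0.22. The shares called among chain genes lay below the background in all 3 comparisons. Single libraries bear on the bone counts: leaving out each of the 6 fresh bone libraries in turn gave 2 to 4 higher and 4 to 8 lower. In bone chips the count was 9 higher without GFP+ (hi) replicate 2 or 3 or GFP- replicate 1 or 3, and 2 lower without GFP+ (hi) replicate 1 or 2 or GFP- replicate 3. The median standard error was 0.17, 0.11 and 0.17 log2 in the 3 comparisons. The 95% interval of the fold change lay within 1 log2 unit of 0 for 70 of 76 chain subunits tested in fresh bone. It did so for 72 of 78 in the bone chip comparison and for 44 of 79 in the third. A gene that was not called may still differ: *Ndufs1* in fresh bone was not called at 0.58 log2. Of the 83 genes, 23 were called in none of the comparisons, 42 in 1, 15 in 2 and 3 in all 3 (*Atp5g1*, *Cox4i2* and *Cox6b2*). The 23 include *Cox7b2* and *Cox8c*, which could be tested in none. Only *Cox6b2* was called in the same direction, lower, in all 3, and 6 genes were called in both directions.

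**Figure D1:**
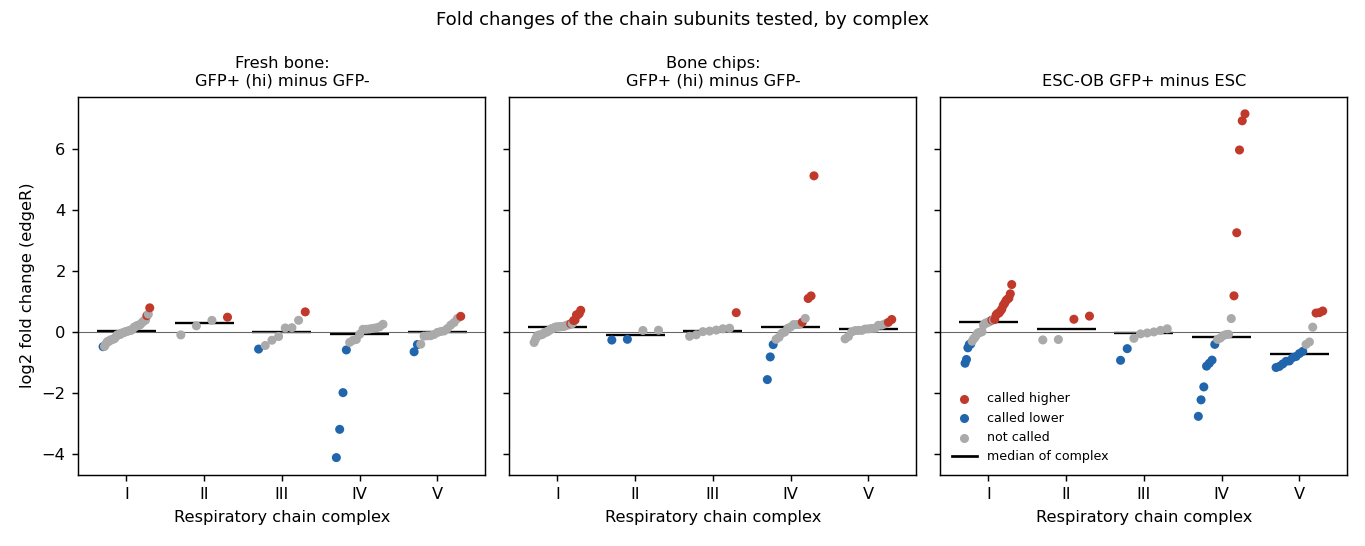
Each point is a chain subunit tested, placed by its complex on the x axis and by its log2 fold change on the y axis, in fresh bone (left), bone chips (middle) and ESC-OB GFP+ cells against ESC (right); red and blue mark calls and the bar is the median of the complex. The widest points belong to complex IV, down to -4.13 in fresh bone, up to 5.12 in bone chips and up to 7.16 in ESC-OB GFP+ cells, and the median of complex V in ESC-OB GFP+ cells is -0.71.

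By complex, fresh bone had 2 higher and 1 lower of 34 in complex I (median log2 fold change 0.02), 1 and 0 of 4 in complex II (0.29), 1 and 1 of 8 in complex III (-0.01), 0 and 4 of 15 in complex IV (-0.08) and 1 and 2 of 15 in complex V (-0.018). The median of complex I turned to -0.0035 and -0.046 with RLE and upper-quartile factors, under which those of complexes III, IV and V stayed below 0. These 3 were 0.13, 0.17 and 0.12 in a joint fit of 18 libraries, with 18 complex IV genes tested. The median of all genes moved as well, to -0.021 (RLE), -0.063 (upper quartile) and 0.084 (joint fit). Bone chips had 7 higher and 0 lower in complex I (0.16), 0 and 2 in complex II (-0.10), 1 and 0 in complex III (0.04), 4 and 3 of 17 in complex IV (0.16) and 2 and 0 in complex V (0.10). ESC-OB GFP+ cells had 14 higher and 5 lower in complex I (0.32), 2 and 0 in complex II (0.08), 0 and 2 in complex III (-0.05), 5 and 7 of 18 in complex IV (-0.16) and 3 and 9 in complex V (-0.71). In that comparison the fold changes of the chain genes followed the GC content of their transcripts (Spearman's rho 0.32 over 81 genes, 0.14 over all 13868 genes with a length, as a description across genes, which are not independent). When the libraries were levelled in 20 bins of GC content or of transcript length (a choice made after seeing the data), the complex I median was -0.08 and -0.04, so its sign turned, and the complex II median -0.20 and -0.23. Complex III then had a median of -0.64 with 5 lower (GC) and -0.47 with 7 lower (length), both with 0 higher, complex IV medians of -0.39 and -0.47, and complex V medians of -0.79 and -1.03. The median of all genes was then -0.01 and -0.00, against 0.22 without levelling. The same levelling gave 14 higher and 37 lower (GC) and 17 higher and 44 lower (length) of the 81 genes.

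The isoform genes of complex IV moved most. Windows of 250 bases upstream of the RefSeq start (GRCm38.p6) are shown for 3 of the isoform genes that have one, *Cox8b*, which was far higher in bone chip GFP+ (hi) cells, *Cox6a1*, the widely expressed partner of *Cox6a2*, and *Cox6b2*, which was lower in all 3 comparisons. They run 5' to 3' on the gene's own strand, which is the minus strand for each: *Cox8b* at chr7:140900447-140900696, *Cox6a1* at chr5:115348959-115349208 and *Cox6b2* at chr7:4753095-4753344. Capitals mark a match on either strand to CCGGAAG (the core bound by ETS factors such as *Gabpa*), TGCGCA (NRF1), AAGGTCA (estrogen-related receptors) or ACGTG (the core of the hypoxia response element).
Cox8b: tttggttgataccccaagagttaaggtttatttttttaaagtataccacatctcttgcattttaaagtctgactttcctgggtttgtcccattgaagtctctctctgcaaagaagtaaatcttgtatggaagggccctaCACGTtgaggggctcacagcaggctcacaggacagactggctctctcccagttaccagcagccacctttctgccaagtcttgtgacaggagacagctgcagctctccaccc
Cox6a1: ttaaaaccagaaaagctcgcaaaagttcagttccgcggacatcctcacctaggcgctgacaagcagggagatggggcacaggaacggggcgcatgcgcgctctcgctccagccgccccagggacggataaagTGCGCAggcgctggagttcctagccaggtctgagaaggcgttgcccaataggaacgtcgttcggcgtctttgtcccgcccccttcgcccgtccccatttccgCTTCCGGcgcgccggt
Cox6b2: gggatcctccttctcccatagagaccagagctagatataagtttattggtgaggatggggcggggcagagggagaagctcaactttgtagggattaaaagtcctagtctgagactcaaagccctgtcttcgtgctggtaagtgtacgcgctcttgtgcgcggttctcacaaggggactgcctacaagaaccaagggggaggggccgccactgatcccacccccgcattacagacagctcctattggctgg
The *Cox8b* window holds 1 hypoxia core, read as CACGT on the strand shown, the *Cox6a1* window holds 1 NRF1 core and 1 ETS core, read as CTTCCGG, and the *Cox6b2* window holds none of the 4. A match is a description of letters and not a binding site. Among the 68 of 83 chain genes with a window, taking the first listed, 11 (16.2%) hold the ETS core, 13 (19.1%) the NRF1 core, 4 (5.88%) the estrogen-related receptor core and 16 (23.5%) the hypoxia core. Over all 27025 genes with a window, the shares were 7.05%, 6.66%, 4.05% and 16.6% in the same order of motifs.

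*Cox4i2* (chr2:152579909-152590773 in mm9, plus strand) moved in opposite directions in the 2 bone sources and was nearly absent from ESC. It had 1.89, 2.80 and 4.53 CPM in bone GFP+ (hi) cells, against 47.0, 44.0 and 68.7 CPM in bone GFP- cells. All GFP+ (hi) libraries lay far below all GFP- libraries, a log2 fold change of -4.13 ± 0.34, adjusted p = 1.46e-05. In bone chips it had 66.5, 74.4 and 49.4 CPM in bone chip GFP+ (hi) cells, against 31.3, 33.6 and 19.3 CPM in bone chip GFP- cells. There the GFP+ (hi) libraries were all higher (1.18 ± 0.24, adjusted p = 0.00729). In ESC-OB GFP+ cells it had 9.57, 24.6 and 8.89 CPM, against 0, 0.0555 and 0.419 CPM in ESC. With 1037 counts over the ESC-OB GFP+ libraries and 3 over the ESC libraries, the rate ratio was 129 (95% interval 44.0 to 626, counting error only), and the fitted log2 fold change of 6.93 ± 0.79, adjusted p = 1.41e-05 rests on those 3 counts: it was 6.12 without ESC replicate 2 and 8.20 without ESC replicate 3. As a share of the counts of both subunit 4 genes, *Cox4i2* made up 1.84, 2.95 and 3.94% in bone GFP+ (hi) libraries, against 32.8, 35.3 and 39.1% in bone GFP- libraries. In bone chips it made up 31.9, 35.8 and 26.1% in bone chip GFP+ (hi) libraries, against 21.5, 20.3 and 15.6% in bone chip GFP- libraries, and in the third comparison 4.09, 7.23 and 3.68% in ESC-OB GFP+ libraries, against 0, 0.0191 and 0.159% in ESC libraries. Each of these 3 pairs of groups stood apart (exact permutation p = 0.1, the smallest possible). Shares are of counts and not corrected for transcript length.

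The common isoform *Cox4i1* was not called in any comparison beside it. *Cox4i1* had 101, 92.2 and 110.4 CPM in bone GFP+ (hi) cells, against 96.4, 80.6 and 107 CPM in bone GFP- cells (log2 fold change 0.10 ± 0.16, adjusted p = 0.657). Bone chips gave 142, 133 and 139.6 CPM in bone chip GFP+ (hi) cells, against 114, 132 and 104 CPM in bone chip GFP- cells (log2 fold change 0.25 ± 0.11, adjusted p = 0.103). The ESC table gave 224, 316 and 233 CPM in ESC-OB GFP+ cells, against 267, 291 and 264 CPM in ESC (log2 fold change -0.09 ± 0.18, adjusted p = 0.653). None of the 3 differences was called, and only in bone chips did the groups stand apart. On 1 scale for all 18 libraries, the median *Cox4i2* level was 73.8 CPM in bone chip GFP+ (hi) cells, 69.0 in bone GFP- cells, 34.8 in bone chip GFP- cells, 5.73 in ESC-OB GFP+ cells, 4.37 in bone GFP+ (hi) cells and 0.0333 in ESC. In that order, the first 2 populations overlap in range, as do ESC-OB GFP+ and bone GFP+ (hi) cells, and the other neighbours do not.

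**Figure D2:**
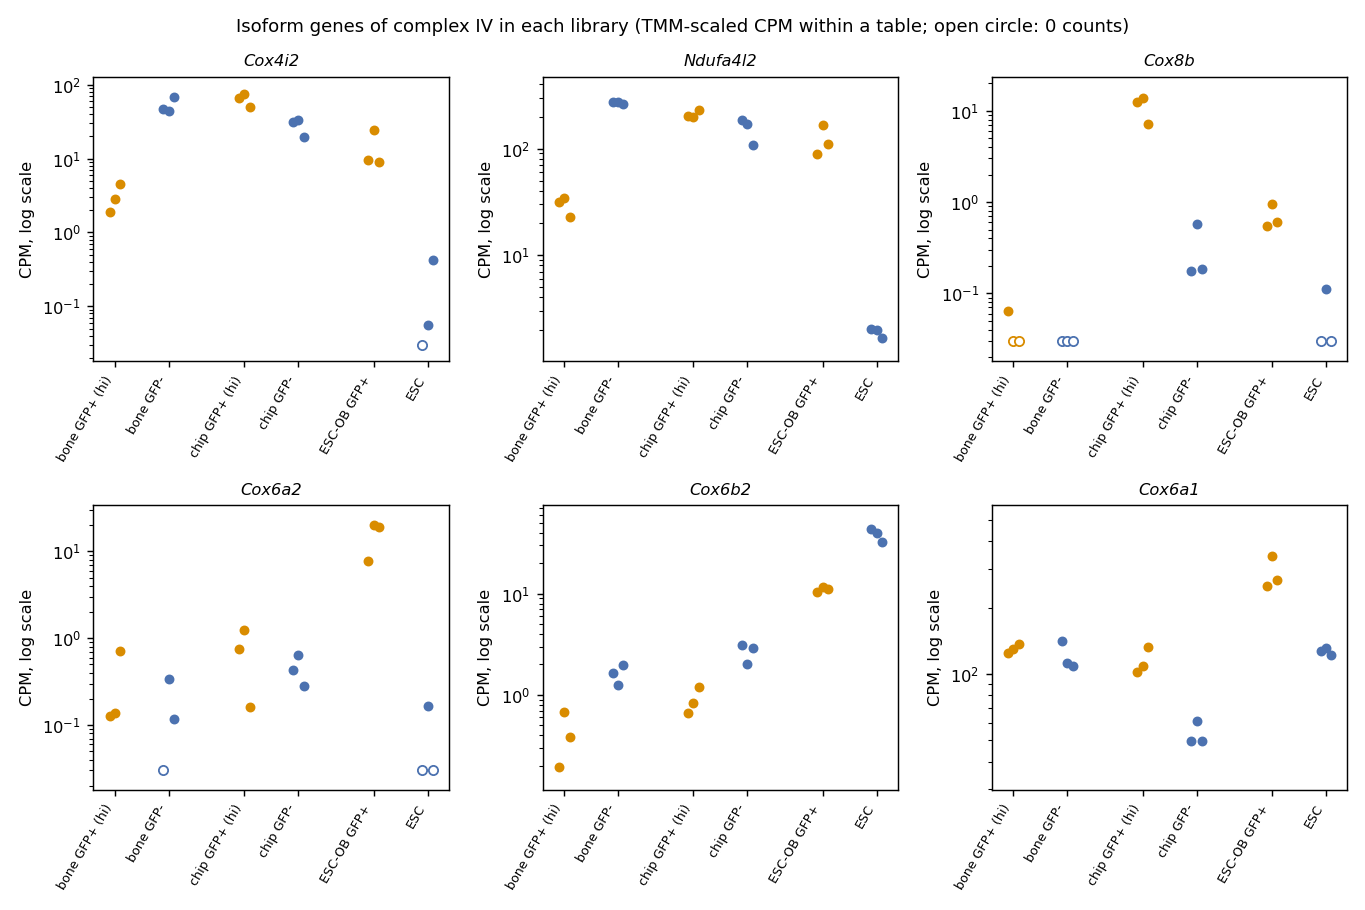
TMM-scaled CPM (log y axis, its range set per gene) of 6 complex IV isoform genes in each library, with GFP+ populations in orange, left of their reference in blue, and open circles for libraries with 0 counts. *Cox4i2* and *Ndufa4l2* lie low in bone GFP+ (hi) cells (1.89 to 4.53 CPM for *Cox4i2*, against 44.0 to 68.7 CPM in bone GFP- cells), and *Cox8b* stands out in bone chip GFP+ (hi) cells.

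*Ndufa4l2*, a relative of *Ndufa4* induced through the hypoxia-inducible factors (HIF), shifted with *Cox4i2* in fresh bone. It lies at chr10:126951995-126954208 in mm9 on the plus strand. Bone GFP+ (hi) cells had 31.2, 34.6 and 22.6 CPM, against 276, 271 and 263 CPM in bone GFP- cells. The groups lay far apart (-3.20 ± 0.19, adjusted p = 2.00e-06). Bone chips had 200.4, 196 and 230.3 CPM in bone chip GFP+ (hi) cells, against 184, 169 and 109 CPM in bone chip GFP- cells, a difference that was not called (0.44 ± 0.20, adjusted p = 0.115), although the groups did not overlap. The third comparison gave 89.5, 165 and 110.2 CPM in ESC-OB GFP+ cells, against 2.03, 2.00 and 1.68 CPM in ESC. All ESC-OB GFP+ libraries were higher (5.97 ± 0.30, adjusted p = 4.05e-08). Of the summed counts of *Ndufa4* and *Ndufa4l2*, *Ndufa4l2* took 49.8, 53.7 and 43.0% in bone GFP+ (hi) libraries, against 89.0, 88.0 and 86.9% in bone GFP- libraries. An exon of *Ndufa4l2* overlaps *Shmt2* on the other strand, and whether counting used strand was not given in the sources used here. *Shmt2* itself moved less, with log2 fold changes of -0.44 in fresh bone (adjusted p = 0.0428), 0.32 in bone chips (adjusted p = 0.0670) and -1.49 in ESC-OB GFP+ cells (adjusted p = 1.45e-05).

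*Ndufa4*, which is part of complex IV in most tissues, was called in bone chips, where it was lower in GFP+ (hi) cells. It had 20.2, 16.4 and 24.5 CPM in bone chip GFP+ (hi) cells, against 31.0, 33.0 and 43.7 CPM in bone chip GFP- cells. The groups did not overlap (-0.82 ± 0.19, adjusted p = 0.0117). Fresh bone gave 31.5, 29.8 and 30.0 CPM in bone GFP+ (hi) cells, against 34.1, 36.9 and 39.5 CPM in bone GFP- cells (log2 fold change -0.28 ± 0.15, adjusted p = 0.168). The third comparison gave 134, 145 and 109 CPM in ESC-OB GFP+ cells, against 152, 160.1 and 135 CPM in ESC (log2 fold change -0.20 ± 0.17, adjusted p = 0.280). Neither of these was called. The difference between the fresh bone and bone chip effects on *Ndufa4* was not called either (0.55 ± 0.24, adjusted p = 0.112).

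*Cox8b* (chr7:148084842-148086345 in mm9, minus strand) was the chain gene with the largest rise in bone chips. It had 12.5, 13.7 and 7.10 CPM in bone chip GFP+ (hi) cells, against 0.174, 0.571 and 0.186 CPM in bone chip GFP- cells. The GFP+ (hi) libraries were all higher (5.12 ± 0.47, adjusted p = 0.000237), replicate 3 less than the others, and the fold change was 5.85 without bone chip GFP- replicate 2. Its share of the summed *Cox8a* and *Cox8b* counts was 21.6, 22.2 and 9.55% in bone chip GFP+ (hi) libraries, against 0.310, 0.962 and 0.363% in bone chip GFP- libraries. In fresh bone it was untested, with 2, 0 and 0 counts in bone GFP+ (hi) libraries, against 0, 0 and 0 counts in bone GFP- libraries. In the ESC table it had 16, 21 and 15 counts in ESC-OB GFP+ libraries, against 0, 2 and 0 counts in ESC libraries. The 52 counts over ESC-OB GFP+ libraries and 2 over ESC libraries give a rate ratio of 9.69 (95% interval 2.55 to 82.1, counting error only), and the call there (3.25 ± 0.85, adjusted p = 0.00475) rests on these few counts, with a fold change of 6.61 without ESC replicate 2. Brown adipocyte markers (4 genes) summed to 4.47 to 8.05 CPM in bone chip GFP+ (hi) libraries, against 39.5 to 90.5 CPM in bone chip GFP- libraries, and the 1 that could be tested, *Dio2*, was lower. Skeletal muscle markers (8 genes) summed to 2.31 to 6.97 CPM, against 1.83 to 4.13 CPM in bone chip GFP- libraries. The 1 that could be tested was not called (1.51 log2). *Acta1* had the most counts of these markers, 108 over bone chip GFP+ (hi) libraries and 56 over bone chip GFP- libraries. *Myh1*, *Myh2* and *Myh4* were at 0 in all bone chip GFP+ (hi) libraries. Cardiac markers (3 genes) summed to 0.473 to 0.797 CPM, against 0.174 to 0.635 CPM in bone chip GFP- libraries. *Cox8a*, the common isoform, had 45.4, 47.9 and 67.2 CPM in bone chip GFP+ (hi) cells, against 56.1, 58.9 and 50.9 CPM in bone chip GFP- cells (log2 fold change -0.05 ± 0.16, adjusted p = 0.840).

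*Cox8a* was not called elsewhere. Fresh bone gave 45.1, 45.6 and 52.6 CPM in bone GFP+ (hi) cells, against 50.2, 41.3 and 43.7 CPM in bone GFP- cells (log2 fold change 0.08 ± 0.16, adjusted p = 0.699). The ESC table gave 203, 324 and 223 CPM in ESC-OB GFP+ cells, against 184, 183 and 187 CPM in ESC (log2 fold change 0.44 ± 0.19, adjusted p = 0.0601). The ESC-OB GFP+ libraries were all above the ESC libraries, and the sign turned with levelling by GC content (-0.58).

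**Figure D3:**
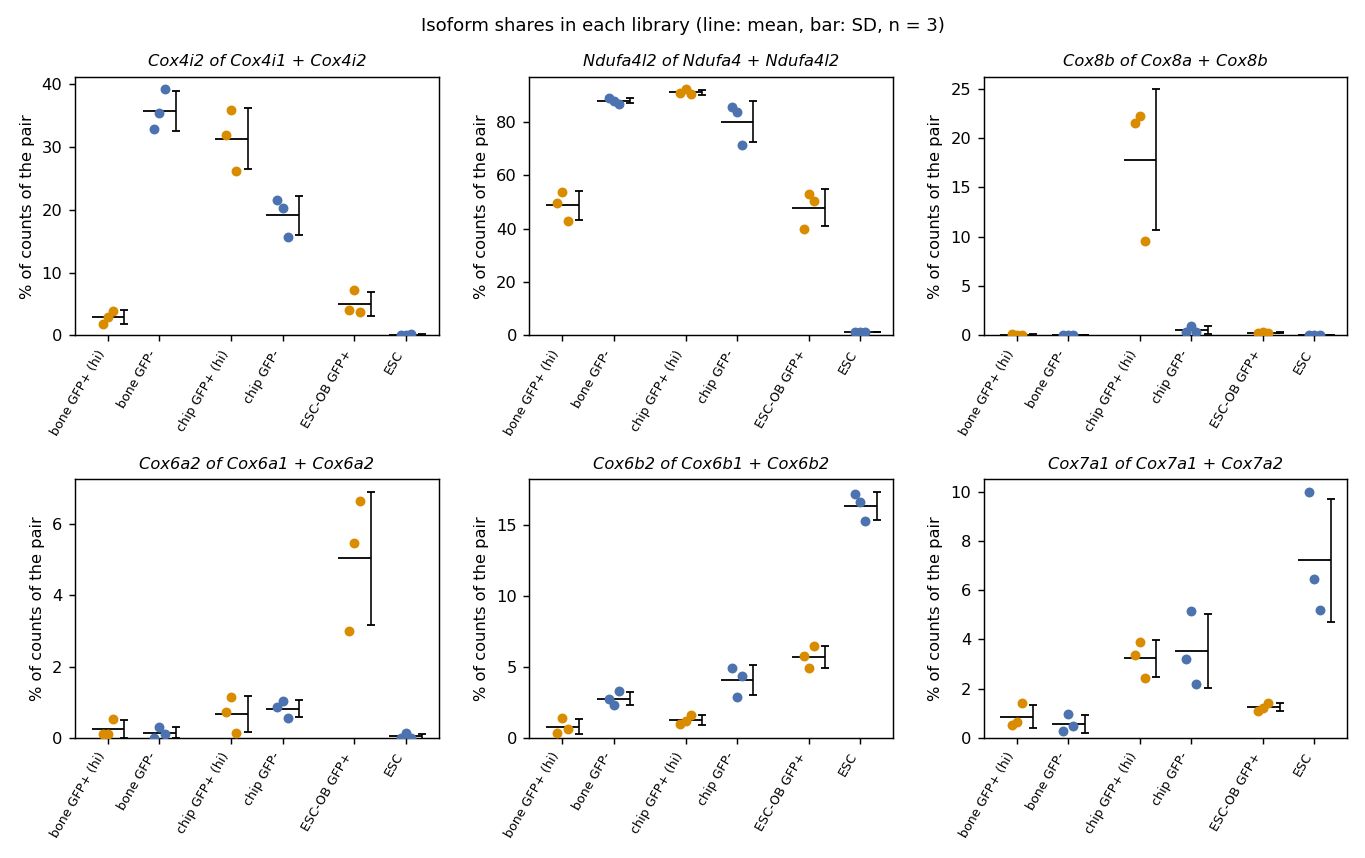
The share of the tissue-restricted gene in the summed counts of an isoform pair (y axis, %), in each library of the 6 populations; lines are means and bars SD (n = 3). *Cox4i2* and *Ndufa4l2* have low shares in bone GFP+ (hi) cells (means 2.91% and 48.8%, against 35.7% and 88.0% in bone GFP- cells), and *Cox8b* reaches a mean of 17.8% in bone chip GFP+ (hi) cells only.

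*Cox6a2*, the muscle isoform of subunit 6a, was raised in ESC-OB GFP+ cells. It had 225, 436 and 475 counts in ESC-OB GFP+ libraries, against 0, 3 and 0 counts in ESC libraries. Summed, these are 1136 and 3 counts, a rate ratio of 141 (95% interval 48.2 to 685, counting error only). The fitted log2 fold change was 7.16 ± 0.70, adjusted p = 4.19e-06 and became 11.06 without ESC replicate 2, the only ESC library with any counts. Cardiac markers rose beside it (5 of 6 tested, 268 to 390 CPM summed in ESC-OB GFP+ libraries, against 9.95 to 13.4 CPM in ESC libraries, where *Actc1* was at 0). Of the skeletal muscle markers, 5 of 7 tested rose and 1 fell, with sums of 17.7 to 84.4 CPM in ESC-OB GFP+ libraries and 73.1 to 166 CPM in ESC libraries. Their part in the *Cox6a2* level was not tested. The gene (chr7:135348950-135349880 in mm9, minus strand) overlaps *Itgad* on the other strand, which was not tested in fresh bone or the ESC table. In fresh bone, *Cox6a2* had 4, 2 and 15 counts in bone GFP+ (hi) libraries, against 0, 3 and 1 counts in bone GFP- libraries. In bone chips it had 8, 15 and 2 counts in bone chip GFP+ (hi) libraries, against 5, 10 and 6 counts in bone chip GFP- libraries. Neither source passed the low-count filter for this gene, and both pairs of groups overlapped.

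*Cox6a1*, the common isoform, was higher in 2 of the 3 comparisons. It lies at chr5:115795651-115798990 in mm9 on the minus strand. Bone chips had 103, 108 and 133 CPM in bone chip GFP+ (hi) cells, against 49.7, 61.5 and 49.7 CPM in bone chip GFP- cells. The GFP+ (hi) libraries were all higher (1.10 ± 0.14, adjusted p = 0.000932). The third comparison gave 252, 343 and 268 CPM in ESC-OB GFP+ cells, against 127, 131 and 122 CPM in ESC. They too were all higher (1.18 ± 0.17, adjusted p = 8.11e-05), but the call was lost with levelling by GC content (0.17, adjusted p = 0.283). In fresh bone it had 125, 129.5 and 137 CPM in bone GFP+ (hi) cells, against 141, 112 and 108 CPM in bone GFP- cells (log2 fold change 0.12 ± 0.15, adjusted p = 0.576), with overlapping groups.

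*Cox6b2*, the testis isoform of subunit 6b, was lower in all 3 comparisons at low levels. It lies at chr7:4703396-4704696 in mm9 on the minus strand. Fresh bone had 0.192, 0.683 and 0.385 CPM in bone GFP+ (hi) cells, against 1.65, 1.26 and 1.99 CPM in bone GFP- cells. The groups did not overlap (-1.99 ± 0.66, adjusted p = 0.0357). The call was lost without bone GFP+ (hi) replicate 1 or bone GFP- replicate 1, 2 or 3 (adjusted p = 0.0888 to 0.141) and in 2 of the 11 other settings (adjusted p = 0.0765 to 0.0855). Bone chips had 0.663, 0.830 and 1.20 CPM in bone chip GFP+ (hi) cells, against 3.14, 2.03 and 2.92 CPM in bone chip GFP- cells (log2 fold change -1.57 ± 0.31, adjusted p = 0.00632). In the ESC table it had 10.4, 11.7 and 11.1 CPM in ESC-OB GFP+ cells, against 43.9, 40.1 and 32.3 CPM in ESC (log2 fold change -1.81 ± 0.19, adjusted p = 8.77e-06). In both, every GFP+ library lay below every reference library. Its share of the subunit 6b counts was 5.79, 4.90 and 6.48% in ESC-OB GFP+ libraries, against 17.2, 16.7 and 15.3% in ESC libraries, and the shares were lower in fresh bone (0.366 to 1.37% in bone GFP+ (hi) libraries and 2.29 to 3.28% in bone GFP- libraries).

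*Cox6b1*, the common isoform, was not called in any comparison. Fresh bone gave 52.3, 49.1 and 60.4 CPM in bone GFP+ (hi) cells, against 58.4, 53.6 and 58.7 CPM in bone GFP- cells (log2 fold change -0.08 ± 0.15, adjusted p = 0.708). Bone chips gave 67.1, 69.9 and 72.4 CPM in bone chip GFP+ (hi) cells, against 60.4, 68.6 and 64.0 CPM in bone chip GFP- cells (log2 fold change 0.12 ± 0.08, adjusted p = 0.296). The third comparison gave 169.8, 228 and 161 CPM in ESC-OB GFP+ cells, against 211, 201 and 178 CPM in ESC (log2 fold change -0.08 ± 0.18, adjusted p = 0.697). The groups overlapped in all 3.

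*Cox7a1*, the muscle isoform of subunit 7a, fell in ESC-OB GFP+ cells. It lies at chr7:30969190-30971047 in mm9 on the plus strand. It had 1.04, 1.64 and 1.29 CPM in ESC-OB GFP+ cells, against 12.9, 8.16 and 6.07 CPM in ESC. The groups did not overlap (-2.77 ± 0.40, adjusted p = 8.85e-05). In bone chips it had 1.42, 1.66 and 0.957 CPM in bone chip GFP+ (hi) cells, against 0.958, 1.97 and 0.696 CPM in bone chip GFP- cells (log2 fold change 0.16 ± 0.45, adjusted p = 0.796), and in fresh bone, untested, 5, 3 and 9 counts in bone GFP+ (hi) libraries, against 1, 4 and 2 counts in bone GFP- libraries. Its partner *Cox7a2* was lower in bone GFP+ (hi) cells and slightly higher in bone chip GFP+ (hi) cells. Fresh bone had 30.9, 31.0 and 30.2 CPM in bone GFP+ (hi) cells, against 43.0, 46.7 and 49.1 CPM in bone GFP- cells (log2 fold change -0.59 ± 0.15, adjusted p = 0.00961). Bone chips had 40.6, 40.8 and 38.4 CPM in bone chip GFP+ (hi) cells, against 28.8, 36.1 and 31.0 CPM in bone chip GFP- cells (log2 fold change 0.32 ± 0.10, adjusted p = 0.0422). This call was lost without bone chip GFP+ (hi) replicate 1, 2 or 3 or bone chip GFP- replicate 1 or 3 (adjusted p = 0.0630 to 0.120) and in 3 of the 11 other settings (adjusted p = 0.0561 to 0.122). The ESC table had 93.3, 133 and 89.7 CPM in ESC-OB GFP+ cells, against 116, 118 and 111 CPM in ESC (log2 fold change -0.13 ± 0.18, adjusted p = 0.533), not called.

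Other complex IV subunits were called mainly in the ESC table. *Cox7b*, a small subunit of the holoenzyme encoded on the X chromosome, had 62.9, 83.4 and 60.6 CPM in ESC-OB GFP+ cells, against 323, 354 and 294 CPM in ESC. The groups did not overlap (-2.23 ± 0.18, adjusted p = 1.17e-06). *Xist* counts, given above, also differed between these groups, and the part of X chromosome state in the fall of *Cox7b* was not tested. *Cox5a*, *Cox5b*, *Cox7a2l* and *Cox7c* were also lower there. In bone chips *Cox7b* had 31.6, 33.0 and 38.7 CPM in bone chip GFP+ (hi) cells, against 41.7, 47.9 and 48.2 CPM in bone chip GFP- cells (log2 fold change -0.42 ± 0.11, adjusted p = 0.0200). The call of *Cox7b* was lost without bone chip GFP+ (hi) replicate 1 or 2 or bone chip GFP- replicate 3 (adjusted p = 0.0657 to 0.0816) and in 1 of the 11 other settings (adjusted p = 0.0525). In fresh bone it had 24.6, 21.6 and 26.7 CPM in bone GFP+ (hi) cells, against 18.9, 21.6 and 24.4 CPM in bone GFP- cells (log2 fold change 0.17 ± 0.18, adjusted p = 0.484), not called.

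In complex I, 7 of 34 subunits were called higher and 0 lower in bone chips, against 20.4% and 23.1% of all genes. In ESC-OB GFP+ cells 14 of 34 were higher and 5 lower, against 43% and 34.7% of all genes. The shares called higher thus lay near those of all genes in both. In the ESC-OB GFP+ cells the balance turned with levelling, to 8 higher and 11 lower by GC content and 9 higher and 12 lower by length. *Ndufa1*, an accessory subunit encoded on the X chromosome, was higher in both bone sources. Fresh bone had 46.2, 48.2 and 53.5 CPM in bone GFP+ (hi) cells, against 22.8, 33.2 and 29.6 CPM in bone GFP- cells (log2 fold change 0.79 ± 0.18, adjusted p = 0.00648). Bone chips had 23.0, 20.8 and 28.8 CPM in bone chip GFP+ (hi) cells, against 15.1, 16.7 and 16.05 CPM in bone chip GFP- cells (log2 fold change 0.60 ± 0.14, adjusted p = 0.0111). The groups did not overlap in either source, and no library left out ended either call. In fresh bone, GFP+ (hi) replicates 1 and 3 were female and all GFP- libraries male by the counts given above. The part of sex in that rise was not tested. In ESC-OB GFP+ cells *Ndufa1* was not called. *Ndufc2*, another accessory subunit, had 40.6, 42.0 and 34.5 CPM in bone chip GFP+ (hi) cells, against 23.3, 25.4 and 22.9 CPM in bone chip GFP- cells (log2 fold change 0.71 ± 0.10, adjusted p = 0.00175) in the bone chip comparison. The other bone chip calls were higher: *Ndufa2*, *Ndufa9*, *Ndufb5*, *Ndufb9* and *Ndufv3*.

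Both further complex I calls in fresh bone were small. *Ndufa3* had 24.2, 25.9 and 29.2 CPM in bone GFP+ (hi) cells, against 17.9, 18.2 and 18.6 CPM in bone GFP- cells (log2 fold change 0.53 ± 0.17, adjusted p = 0.0274). It was no longer called without bone GFP+ (hi) replicate 2 or 3 or bone GFP- replicate 1, 2 or 3 (adjusted p = 0.0508 to 0.0750) and in 2 of the 11 other settings (adjusted p = 0.0549 to 0.0562). *Ndufa8* had 32.5, 34.1 and 36.1 CPM in bone GFP+ (hi) cells, against 52.3, 47.2 and 44.2 CPM in bone GFP- cells (log2 fold change -0.48 ± 0.15, adjusted p = 0.0272). *Ndufa8* was no longer called without bone GFP+ (hi) replicate 1 or 2 or bone GFP- replicate 1 or 2 (adjusted p = 0.0502 to 0.126) and in 3 of the 11 other settings (adjusted p = 0.0545 to 0.0708). In each case the GFP+ (hi) and GFP- libraries did not overlap.

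In ESC-OB GFP+ cells, complex I subunits split. *Ndufs1*, which carries iron-sulfur clusters of the electron path, had 79.3, 64.9 and 64.1 CPM in ESC-OB GFP+ cells, against 131, 159.6 and 134 CPM in ESC. It fell (-1.03 ± 0.16, adjusted p = 0.000166). *Ndufv2*, another iron-sulfur subunit of the NADH-oxidizing module, had 97.0, 109 and 88.1 CPM in ESC-OB GFP+ cells, against 181, 195 and 175 CPM in ESC (log2 fold change -0.90 ± 0.15, adjusted p = 0.000277). *Ndufs7*, an iron-sulfur subunit next to the quinone site, went the other way with 119.6, 166 and 113 CPM in ESC-OB GFP+ cells, against 55.8, 58.7 and 52.6 CPM in ESC (log2 fold change 1.25 ± 0.18, adjusted p = 8.87e-05). Its call was lost with levelling by GC content (0.24, adjusted p = 0.192). The accessory subunit *Ndufa2* had 75.0, 113 and 80.3 CPM in ESC-OB GFP+ cells, against 38.0, 30.2 and 23.0 CPM in ESC (log2 fold change 1.55 ± 0.23, adjusted p = 8.58e-05). In all 4 genes the ESC-OB GFP+ and ESC libraries did not overlap. *Ndufa10* and *Ndufb4* were also called lower, and *Ndufa3*, *Ndufa6*, *Ndufa8*, *Ndufa13*, *Ndufb2*, *Ndufb3*, *Ndufb6*, *Ndufb9*, *Ndufc1*, *Ndufs3*, *Ndufs4* and *Ndufv3* the others called higher.

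The catalytic core showed less in bone. *Ndufs1* had 38.7, 32.3 and 47.9 CPM in bone GFP+ (hi) cells, against 30.7, 30.8 and 18.01 CPM in bone GFP- cells (log2 fold change 0.58 ± 0.24, adjusted p = 0.0805) in the fresh bone comparison, where the groups stood apart without a call. Bone chips gave 33.4, 33.6 and 37.7 CPM in bone chip GFP+ (hi) cells, against 38.1, 35.9 and 38.0 CPM in bone chip GFP- cells (log2 fold change -0.09 ± 0.08, adjusted p = 0.398). *Ndufv1*, which binds NADH and its flavin, was called in none of the 3. It had 42.5, 45.3 and 44.3 CPM in bone GFP+ (hi) cells, against 49.96, 38.0 and 45.5 CPM in bone GFP- cells (log2 fold change -0.02 ± 0.16, adjusted p = 0.950) in the fresh bone comparison. In bone chips *Ndufv1* had 32.0, 29.1 and 29.8 CPM in bone chip GFP+ (hi) cells, against 30.6, 31.2 and 27.5 CPM in bone chip GFP- cells (log2 fold change 0.03 ± 0.09, adjusted p = 0.819). In the ESC table *Ndufv1* had 133, 147 and 133 CPM in ESC-OB GFP+ cells, against 95.7, 125 and 105 CPM in ESC (log2 fold change 0.34 ± 0.16, adjusted p = 0.0698). The ESC-OB GFP+ libraries were all above the ESC libraries, and the sign turned with levelling by GC content (-0.42).

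Complex II, which is also succinate dehydrogenase of the citric acid cycle, changed by at most 0.52 log2 in any comparison. *Sdha*, the flavoprotein, had 92.1, 97.8 and 92.4 CPM in bone chip GFP+ (hi) cells, against 111, 110.3 and 113 CPM in bone chip GFP- cells (log2 fold change -0.24 ± 0.07, adjusted p = 0.0329) in the bone chip comparison. This call did not hold without bone chip GFP+ (hi) replicate 1, 2 or 3 or bone chip GFP- replicate 1 or 3 (adjusted p = 0.0648 to 0.131) and in 3 of the 11 other settings (adjusted p = 0.0506 to 0.148). *Sdhb*, the iron-sulfur subunit, had 26.5, 26.3 and 27.4 CPM in bone chip GFP+ (hi) cells, against 33.1, 30.9 and 32.7 CPM in bone chip GFP- cells (log2 fold change -0.27 ± 0.08, adjusted p = 0.0262) there. The call was lost without bone chip GFP+ (hi) replicate 1 or 2 or bone chip GFP- replicate 1 or 3 (adjusted p = 0.0849 to 0.125) and in 3 of the 11 other settings (adjusted p = 0.0797 to 0.133). In fresh bone neither was called. There *Sdha* had 118, 105 and 109 CPM in bone GFP+ (hi) cells, against 109, 102 and 79.5 CPM in bone GFP- cells (log2 fold change 0.20 ± 0.16, adjusted p = 0.347). *Sdhb* had 72.2, 63.6 and 75.9 CPM in bone GFP+ (hi) cells, against 55.2, 60.1 and 47.7 CPM in bone GFP- cells (log2 fold change 0.38 ± 0.16, adjusted p = 0.0784), with GFP+ (hi) libraries all higher but no call.

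The membrane anchor *Sdhc* was the complex II subunit called higher in fresh bone. It had 45.0, 48.6 and 47.9 CPM in bone GFP+ (hi) cells, against 34.2, 35.3 and 31.7 CPM in bone GFP- cells (log2 fold change 0.48 ± 0.15, adjusted p = 0.0244). This call was lost without bone GFP+ (hi) replicate 1 or 2 or bone GFP- replicate 1 or 3 (adjusted p = 0.0536 to 0.0834) and in 2 of the 11 other settings (adjusted p = 0.0530 to 0.0535). The other anchor, *Sdhd*, had 64.7, 61.5 and 79.7 CPM in bone GFP+ (hi) cells, against 84.7, 74.4 and 61.6 CPM in bone GFP- cells (log2 fold change -0.10 ± 0.17, adjusted p = 0.681). In bone chips neither anchor was called. *Sdhc* had 44.4, 46.0 and 44.5 CPM in bone chip GFP+ (hi) cells, against 40.2, 49.4 and 40.2 CPM in bone chip GFP- cells (log2 fold change 0.05 ± 0.10, adjusted p = 0.695) there. *Sdhd* had 48.8, 43.0 and 47.8 CPM in bone chip GFP+ (hi) cells, against 43.5, 45.2 and 46.4 CPM in bone chip GFP- cells (log2 fold change 0.05 ± 0.08, adjusted p = 0.675). The groups overlapped for both.

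ESC-OB GFP+ cells had 2 of the 4 complex II genes called higher. *Sdhb* had 133, 151 and 134 CPM in ESC-OB GFP+ cells, against 90.3, 104 and 97.0 CPM in ESC (log2 fold change 0.52 ± 0.15, adjusted p = 0.00817). Its direction turned with levelling by GC content (-0.27), and by length it was 0.13 with the call lost. *Sdhc* had 100.3, 114 and 98.4 CPM in ESC-OB GFP+ cells, against 79.3, 80.7 and 74.2 CPM in ESC (log2 fold change 0.41 ± 0.15, adjusted p = 0.0231). The call of *Sdhc* was lost without ESC replicate 3 (adjusted p = 0.0944) and in 2 of the 11 other settings (adjusted p = 0.0511 to 0.821). *Sdha* and *Sdhd* were not called, although each pair of groups stood apart with ESC-OB GFP+ below ESC. *Sdha* had 271, 252 and 259.9 CPM in ESC-OB GFP+ cells, against 301, 332 and 297 CPM in ESC (log2 fold change -0.25 ± 0.15, adjusted p = 0.149). *Sdhd* had 139, 126 and 122 CPM in ESC-OB GFP+ cells, against 149.7, 167 and 148 CPM in ESC (log2 fold change -0.26 ± 0.15, adjusted p = 0.126).

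In complex III, *Uqcrfs1*, the Rieske iron-sulfur protein, rose in bone GFP+ (hi) cells. It had 40.6, 38.5 and 43.4 CPM in bone GFP+ (hi) cells, against 28.6, 28.1 and 20.9 CPM in bone GFP- cells. The groups did not overlap (0.66 ± 0.17, adjusted p = 0.0139), and the call held without any 1 library. *Uqcr10*, a small subunit, was lower with 31.6, 26.2 and 38.3 CPM in bone GFP+ (hi) cells, against 43.2, 43.4 and 55.7 CPM in bone GFP- cells (log2 fold change -0.56 ± 0.19, adjusted p = 0.0398). It was no longer called without bone GFP+ (hi) replicate 1 or 2 or bone GFP- replicate 1, 2 or 3 (adjusted p = 0.0578 to 0.165) and in 1 of the 11 other settings (adjusted p = 0.0585). *Uqcrfs1* was not called elsewhere. Bone chips gave 30.4, 33.5 and 31.7 CPM in bone chip GFP+ (hi) cells, against 28.7, 31.4 and 27.8 CPM in bone chip GFP- cells (log2 fold change 0.12 ± 0.09, adjusted p = 0.299). The ESC table gave 92.5, 93.4 and 79.3 CPM in ESC-OB GFP+ cells, against 87.9, 109 and 110 CPM in ESC (log2 fold change -0.21 ± 0.16, adjusted p = 0.243).

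*Uqcrq*, another small subunit of complex III, was the one called in bone chips. It had 32.9, 36.2 and 40.5 CPM in bone chip GFP+ (hi) cells, against 21.1, 25.5 and 24.2 CPM in bone chip GFP- cells (log2 fold change 0.63 ± 0.11, adjusted p = 0.00449), with all GFP+ (hi) libraries higher. In ESC-OB GFP+ cells *Uqcrc2*, a core protein, fell. It had 122, 113 and 99.4 CPM in ESC-OB GFP+ cells, against 213, 226 and 199 CPM in ESC (log2 fold change -0.93 ± 0.15, adjusted p = 0.000235). *Uqcrh*, the hinge protein that contacts cytochrome c1, had 67.5, 94.8 and 66.4 CPM in ESC-OB GFP+ cells, against 109, 123 and 102 CPM in ESC (log2 fold change -0.55 ± 0.18, adjusted p = 0.0164). *Uqcrh* was no longer called without ESC-OB GFP+ replicate 1 or 3 or ESC replicate 2 (adjusted p = 0.0600 to 0.0777).

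ATP synthase genes were lower in ESC-OB GFP+ cells than in ESC for most subunits. *Atp5b*, the catalytic β subunit, had 1062, 921 and 952 CPM in ESC-OB GFP+ cells, against 1705, 1905 and 1656 CPM in ESC. It fell in all 3 libraries relative to all ESC libraries (-0.84 ± 0.17, adjusted p = 0.00106). *Atp5a1*, the α subunit, had 577, 535 and 539.7 CPM in ESC-OB GFP+ cells, against 1085, 1337 and 1199 CPM in ESC (log2 fold change -1.13 ± 0.17, adjusted p = 0.000114). *Atp5c1*, the γ subunit of the central stalk, was also lower (log2 fold change -0.81 ± 0.17, adjusted p = 0.00112). *Atp5k*, the e subunit in the membrane part, had 31.1, 41.9 and 31.6 CPM in ESC-OB GFP+ cells, against 86.1, 76.7 and 72.5 CPM in ESC (log2 fold change -1.17 ± 0.17, adjusted p = 0.000105). The ESC-OB GFP+ and ESC libraries did not overlap for these 4 genes, and no library left out and no other setting run ended their calls. *Atp5f1*, *Atp5g1*, *Atp5g2*, *Atp5l* and *Atp5o* were also lower.

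The δ and ε subunits of the central stalk were called the other way. *Atp5d* (δ) had 207, 246 and 198 CPM in ESC-OB GFP+ cells, against 133, 144 and 143 CPM in ESC (log2 fold change 0.63 ± 0.16, adjusted p = 0.00340). Its sign turned with levelling by GC content (-0.38) and by length (-0.024). *Atp5e* (ε) had 68.2, 95.7 and 63.7 CPM in ESC-OB GFP+ cells, against 51.8, 49.7 and 39.6 CPM in ESC (log2 fold change 0.69 ± 0.20, adjusted p = 0.00802). Its sign turned with levelling by GC content (-0.094). *Atp5j* was the third gene called higher, and *Atp5s*, outside the chain, had 12.8, 14.9 and 11.6 CPM in ESC-OB GFP+ cells, against 6.64, 4.16 and 2.72 CPM in ESC (log2 fold change 1.54 ± 0.34, adjusted p = 0.00153).

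**Figure D4:**
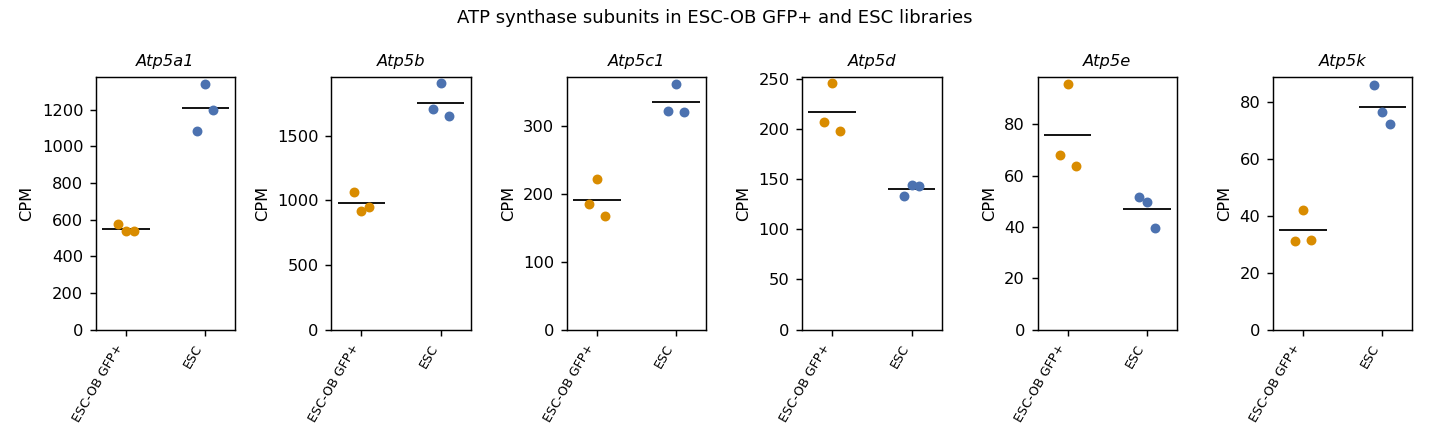
TMM-scaled CPM (y axis from 0) of 6 ATP synthase genes in the 3 ESC-OB GFP+ libraries (orange, left) and the 3 ESC libraries (blue, right); lines are means. *Atp5a1*, *Atp5b*, *Atp5c1* and *Atp5k* lie lower in ESC-OB GFP+ cells in every library, and *Atp5d* and *Atp5e* lie higher.

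The catalytic subunits were not called in either bone source. *Atp5a1* had 251, 254 and 238 CPM in bone GFP+ (hi) cells, against 277, 243 and 232 CPM in bone GFP- cells (log2 fold change -0.02 ± 0.14, adjusted p = 0.931) in the fresh bone comparison. In bone chips it had 268, 269.6 and 275 CPM in bone chip GFP+ (hi) cells, against 269.8, 265 and 278 CPM in bone chip GFP- cells (log2 fold change -0.00 ± 0.08, adjusted p = 0.996). The interval of that difference in bone chips was -0.18 to 0.18 log2. *Atp5b* had 426, 389 and 357 CPM in bone GFP+ (hi) cells, against 464, 390.4 and 423 CPM in bone GFP- cells (log2 fold change -0.12 ± 0.15, adjusted p = 0.534) in the fresh bone comparison. In bone chips *Atp5b* had 338, 314 and 355 CPM in bone chip GFP+ (hi) cells, against 321, 317 and 337 CPM in bone chip GFP- cells (log2 fold change 0.05 ± 0.09, adjusted p = 0.686). The groups overlapped in all 4 of these. *Atp5h*, the d subunit of the peripheral stalk, was called higher in fresh bone with 60.1, 61.6 and 71.4 CPM in bone GFP+ (hi) cells, against 41.7, 42.9 and 51.0 CPM in bone GFP- cells (log2 fold change 0.51 ± 0.16, adjusted p = 0.0265). This call did not hold without bone GFP+ (hi) replicate 1, 2 or 3 or bone GFP- replicate 1 or 2 (adjusted p = 0.0507 to 0.0866). *Atp5c1* was called lower there with 57.6, 51.7 and 55.1 CPM in bone GFP+ (hi) cells, against 72.4, 76.8 and 70.2 CPM in bone GFP- cells (log2 fold change -0.42 ± 0.14, adjusted p = 0.0365). The call was lost without bone GFP+ (hi) replicate 1, 2 or 3 or bone GFP- replicate 1, 2 or 3 (adjusted p = 0.0628 to 0.140) and in 4 of the 11 other settings (adjusted p = 0.0683 to 0.0874).

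*Atp5sl*, outside the chain, had 9.39, 12.3 and 13.2 CPM in bone GFP+ (hi) cells, against 7.37, 4.69 and 7.14 CPM in bone GFP- cells (log2 fold change 0.86 ± 0.28, adjusted p = 0.0358) in the fresh bone comparison. This call was lost without bone GFP+ (hi) replicate 2 or 3 or bone GFP- replicate 1, 2 or 3 (adjusted p = 0.0553 to 0.101) and in 4 of the 11 other settings (adjusted p = 0.0510 to 0.0657). In bone chips *Atp5e* had 59.1, 50.4 and 69.7 CPM in bone chip GFP+ (hi) cells, against 44.0, 49.7 and 41.5 CPM in bone chip GFP- cells (log2 fold change 0.41 ± 0.14, adjusted p = 0.0494). No label pairs the bone chip libraries, although deviations of same-numbered libraries were correlated (0.158, 0.329 and 0.396). With the replicate number as a block *Atp5e* was no longer called (0.40, adjusted p = 0.0780). The call of *Atp5e* was lost without bone chip GFP+ (hi) replicate 1 or 3 or bone chip GFP- replicate 1 or 3 (adjusted p = 0.0986 to 0.121) and in 4 of the 11 other settings (adjusted p = 0.0503 to 0.165).

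*Atp5g1*, *Atp5g2* and *Atp5g3* encode the same mature c subunit of the rotor with different targeting peptides, so they form a natural set of alternatives. *Atp5g1* (chr11:95930166-95936984 in mm9, minus strand) was the only ATP synthase gene called in all 3 comparisons. Fresh bone had 61.8, 60.9 and 74.8 CPM in bone GFP+ (hi) cells, against 101, 98.7 and 111 CPM in bone GFP- cells (log2 fold change -0.65 ± 0.15, adjusted p = 0.00645). Bone chips had 39.9, 43.1 and 50.3 CPM in bone chip GFP+ (hi) cells, against 35.6, 36.4 and 35.2 CPM in bone chip GFP- cells (log2 fold change 0.31 ± 0.10, adjusted p = 0.0450). It was no longer called without bone chip GFP+ (hi) replicate 2 or 3 or bone chip GFP- replicate 1, 2 or 3 (adjusted p = 0.0596 to 0.0937) and in 5 of the 11 other settings (adjusted p = 0.0519 to 0.142). With the replicate block it was 0.31 (adjusted p = 0.0533). The ESC table had 104, 145 and 107 CPM in ESC-OB GFP+ cells, against 211, 247 and 238 CPM in ESC (log2 fold change -0.97 ± 0.18, adjusted p = 0.000483).

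Of the counts of the 3 c-subunit genes, *Atp5g1* made up 40.0, 42.0 and 45.4% in bone GFP+ (hi) libraries, against 48.9, 60.3 and 55.3% in bone GFP- libraries. Its share was 26.5, 27.6 and 29.9% in ESC-OB GFP+ libraries, against 34.5, 34.9 and 36.7% in ESC libraries. The GFP+ libraries lay below in both, while *Atp5g3* had the larger share there. *Atp5g3* made up 41.4, 41.6 and 39.0% in bone GFP+ (hi) libraries, against 34.9, 27.7 and 28.7% in bone GFP- libraries, and 50.4, 47.7 and 48.4% in ESC-OB GFP+ libraries, against 38.5, 40.1 and 40.5% in ESC libraries. In bone chips the shares of all 3 genes overlapped between groups.

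*Atp5g2* and *Atp5g3* were mostly not called. Fresh bone gave 28.8, 23.7 and 25.7 CPM in bone GFP+ (hi) cells, against 33.6, 19.8 and 32.2 CPM in bone GFP- cells for *Atp5g2* (-0.13 ± 0.22, adjusted p = 0.675). Bone chips gave 94.5, 98.6 and 84.7 CPM in bone chip GFP+ (hi) cells, against 86.8, 91.7 and 76.7 CPM in bone chip GFP- cells for the same gene (0.12 ± 0.10, adjusted p = 0.372). Only ESC-OB GFP+ cells had a call, with 90.5, 130.2 and 77.9 CPM in ESC-OB GFP+ cells, against 165, 176 and 147 CPM in ESC (log2 fold change -0.71 ± 0.20, adjusted p = 0.00770). For *Atp5g3*, fresh bone gave 63.9, 60.3 and 64.3 CPM in bone GFP+ (hi) cells, against 71.9, 45.3 and 57.7 CPM in bone GFP- cells (log2 fold change 0.11 ± 0.18, adjusted p = 0.667). Bone chips gave 72.2, 70.6 and 73.1 CPM in bone chip GFP+ (hi) cells, against 53.6, 66.3 and 59.8 CPM in bone chip GFP- cells (log2 fold change 0.26 ± 0.10, adjusted p = 0.0645), with the GFP+ (hi) libraries all higher but no call. The third comparison gave 197, 251 and 174 CPM in ESC-OB GFP+ cells, against 236, 283 and 262 CPM in ESC (log2 fold change -0.33 ± 0.18, adjusted p = 0.115).

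Whether the GFP effect differed between fresh bone and bone chips was tested as an interaction over the 12 libraries. Of 80 chain genes, 3 had a positive difference (fresh bone minus bone chip) and 10 a negative one, against 30.3% of all 13574 genes (14.7% positive and 15.6% negative), and the median difference was -0.12 for chain genes and 0.01 for all. The largest were *Cox4i2* (-5.31 ± 0.44, adjusted p = 2.93e-06) and *Ndufa4l2* (-3.65 ± 0.28, adjusted p = 1.49e-06), whose GFP+ (hi) levels were far below GFP- in fresh bone and not in bone chips. In the other direction were *Sdhb* (0.65 ± 0.17, adjusted p = 0.0137) and *Cox7b* (0.58 ± 0.20, adjusted p = 0.0475). *Cox7b* was no longer called without bone GFP+ (hi) replicate 1 or 3 or bone GFP- replicate 1 or bone chip GFP+ (hi) replicate 1 or 2 or bone chip GFP- replicate 2 or 3 (adjusted p = 0.0531 to 0.115) and in 2 of the 6 other settings (adjusted p = 0.0515 to 0.104). *Cox6a1*, *Cox7a2*, *Atp5g1*, *Ndufv3*, *Uqcrq*, *Ndufc2*, *Ndufa8* and *Cox7c* had the other negative differences and *Ndufa3* the remaining positive one. Without bone chip GFP+ (hi) replicate 2 or bone chip GFP- replicate 3 the count was 8 in all. The source of the cells cannot be told apart from culture, sorting session, the sex of the cells and the make-up of each GFP- population.

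**Figure D5:**
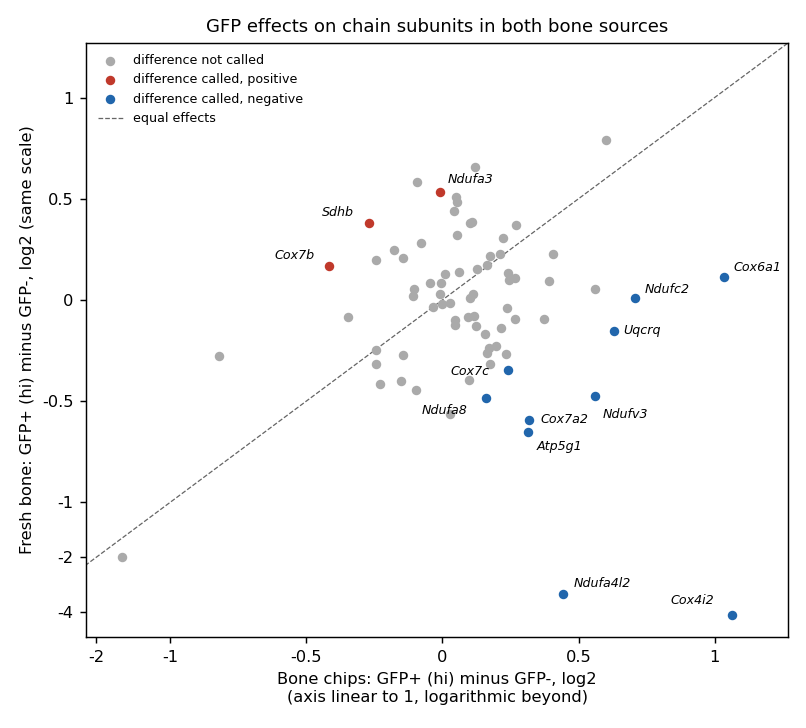
Log2 fold change, GFP+ (hi) minus GFP-, of each chain subunit tested in both sources, in bone chips (x axis) and fresh bone (y axis); both axes are linear to 1 and logarithmic beyond, and the dashed line marks equal effects. *Cox4i2* and *Ndufa4l2* lie far below the line (-4.13 and -3.20 in fresh bone, 1.18 and 0.44 in bone chips), and most other genes lie within 0.5 of 0 on both axes.

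Related gene lists give the setting. Counts called here and in the paragraphs that follow stand beside the shares of all genes called. These were 19.5% higher and 22.1% lower in fresh bone and 20.4% and 23.1% in bone chips. In ESC-OB GFP+ cells they were 43% and 34.7%. Of 42 assembly factors tested in each table, 2 were higher and 4 lower in bone GFP+ (hi) cells, 2 and 3 in bone chip GFP+ (hi) cells and 10 and 12 in ESC-OB GFP+ cells. Examples are *Sdhaf1*, which helps insert iron-sulfur clusters into complex II (1.03 log2, adjusted p = 0.0262 in fresh bone), and *Lrpprc*, which stabilizes mitochondrial mRNAs (-2.97 log2, adjusted p = 7.49e-08 in ESC-OB GFP+ cells). Of 6 chain proteins outside the symbol pattern, 0 were higher and 2 lower in fresh bone, 1 and 2 in bone chips and 1 and 1 in ESC-OB GFP+ cells. *Cycs*, the mobile carrier cytochrome c, was lower in bone GFP+ (hi) cells (-1.08 log2, adjusted p = 0.00312) and bone chip GFP+ (hi) cells (-0.67 log2, adjusted p = 0.0182). The subunits encoded by mitochondrial DNA have 0 rows in these tables and were not analysed here.

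Glycolysis genes moved more than the chain genes in median. Of 15, 0 were higher and 14 lower in bone GFP+ (hi) cells (median -2.22), 9 and 0 in bone chip GFP+ (hi) cells (0.59) and 1 and 11 in ESC-OB GFP+ cells (-0.95). *Aldoc*, an aldolase, was -5.18 log2, adjusted p = 0.000137 in fresh bone and 1.36 log2, adjusted p = 0.00264 in bone chips. Targets of HIF (11 genes) had 0 higher and 5 lower in fresh bone (-0.40), 7 and 1 in bone chips (0.78) and 8 and 3 in ESC-OB GFP+ cells (1.94). *Slc2a1*, a glucose transporter, was -3.93 log2, adjusted p = 6.01e-07 in fresh bone, and *Egln3*, an oxygen-dependent prolyl hydroxylase, was 2.69 log2, adjusted p = 0.000536 in bone chips. *Cox4i2* was called lower in fresh bone and higher in bone chips, the same directions as the medians of both lists, whereas in ESC-OB GFP+ cells it was called higher and the glycolysis median was below 0. The chondrocyte sums given with the libraries move with the fresh bone counts, and their part in them was not tested.

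Fuel genes of the mitochondrial matrix were mixed. Of 18 citric acid cycle and pyruvate dehydrogenase genes, 1 was higher and 1 lower in fresh bone, 1 and 3 in bone chips and 3 and 10 in ESC-OB GFP+ cells. *Pdha1*, a subunit of pyruvate dehydrogenase, was -0.72 log2, adjusted p = 0.00163 in bone chips and -1.91 log2, adjusted p = 1.51e-06 in ESC-OB GFP+ cells. Of 14 fatty acid oxidation genes, 3 and 1, 2 and 5, and 8 and 4 were higher and lower in the same order of comparisons. *Cpt1a*, which admits long-chain fatty acids to mitochondria, was 1.75 log2, adjusted p = 0.00388 in fresh bone, -1.36 log2, adjusted p = 5.03e-05 in bone chips and -1.18 log2, adjusted p = 0.00272 in ESC-OB GFP+ cells. *Acadl*, a long-chain acyl-CoA dehydrogenase, was 3.53 log2, adjusted p = 1.44e-07 in ESC-OB GFP+ cells.

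Of the mitochondrial biogenesis factors, 2 of 13 tested were higher and 0 lower in fresh bone, 1 and 1 of 15 in bone chips and 2 and 9 of 16 in ESC-OB GFP+ cells. The largest rise in fresh bone (8.46 log2) and the largest fall in ESC-OB GFP+ cells (-14.4 log2) each belong to a gene that is also among the stem cell markers. *Ppargc1a*, the coactivator PGC-1α, was -2.50 log2, adjusted p = 0.0270 in bone chips, and *Gabpa*, the ETS factor, was -2.69 log2, adjusted p = 2.19e-07 in ESC-OB GFP+ cells. Mitochondrial ribosomal protein genes (77) had 8 higher and 4 lower, 6 and 7, and 14 and 38. Cytosolic ribosomal protein genes had 2 higher and 4 lower of 74 in fresh bone, 2 and 9 of 74 in bone chips and 0 and 70 of 75 in ESC-OB GFP+ cells (median -2.14, against -0.71 for complex V). Many respiratory chain and ribosomal protein genes have near-identical processed copies in the genome, and how reads that match several places were counted was not given in the sources used here.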

How the data were processed

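RNA-seq libraries of 18 cell samples (3 per population) were deposited as 3 tables of raw read counts per gene. As stated by the authors and the submitters' processing notes, poly-A libraries were sequenced as paired ends, aligned to mm9 with STAR 2.4.2a and tested with DESeq2 in R 3.2.2; the counting tool, its use of strand and its handling of multi-mapping reads were not given in the sources used here. No deposited column was a normalized value or a comparison, and no column was left unused (0).

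Each table was fitted alone with edgeR 4.0.16 (R 4.3.3, limma 3.58.1): filterByExpr with a minimum count of 10, TMM factors, quasi-likelihood F test and Benjamini-Hochberg adjustment over all genes tested, called under 0.05. The standard error is the fold change over the root of F. Groups came from the sample labels. The difference between bone sources was the interaction term over 12 libraries and genes in both tables. Shares were compared by exact permutation. Alternatives were other scalings (RLE, upper quartile), DESeq2 1.42.0, filters, thinning, 3 abundant genes left out, a replicate block, a joint fit, each library left out, and levelling in 20 bins of GC content or length. Replicate numbers were checked by the correlation of same-numbered deviations: 0.158, 0.329 and 0.396 in bone chips and -0.02 to 0.03 elsewhere. No label states a pairing, and the main tests used no block. Total counts ran from 4920977 to 43874837 per library; intervals of rate ratios cover counting error only.

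Positions and lengths came from GENCODE vM1 (mm9, 83 of 83 genes), windows from RefSeq (GRCm38.p6, 68 of 83). Scripts were tested on simulated data. Members, gene lists and tests were chosen with earlier results of these data known. Values per library are given for the isoform genes, complex II, the catalytic subunits, the 2 largest called rises and falls per complex and comparison, and the 2 largest differences between bone sources in each direction; other called genes are listed by symbol, except for a result not reported here. Figures were drawn with matplotlib 3.10.9.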

Additional observations from a re-analysis of the deposited data

Results flagged for a closer look

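For 13 chain genes the effect of GFP status differed between fresh bone and bone chips by a test of the difference itself (edgeR, interaction of source and GFP status over 12 libraries, adjusted over 13574 genes). Values are log2, fresh bone minus bone chip. The difference was -5.31 for *Cox4i2* (adjusted p = 2.93e-06), with effects of -4.13 in fresh bone and 1.18 in bone chips, and -3.65 for *Ndufa4l2* (adjusted p = 1.49e-06). These were followed by *Ndufv3* with -1.04 (adjusted p = 0.00213), *Cox6a1* with -0.98 (adjusted p = 0.00273), *Atp5g1* with -0.97 (adjusted p = 0.00135) and *Cox7a2* with -0.91 (adjusted p = 0.00117). None of these 6 lost its call when any 1 library was left out, and neither did *Sdhb* with 0.65 (adjusted p = 0.0137).

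The other 6 did. *Uqcrq* had -0.78 (adjusted p = 0.0377). This call did not hold without bone GFP+ (hi) replicate 1 or 2 or bone GFP- replicate 2 or 3 or bone chip GFP+ (hi) replicate 2 or 3 or bone chip GFP- replicate 1, 2 or 3 (adjusted p = 0.0718 to 0.136) and in 1 of the 6 other settings (adjusted p = 0.0551). *Ndufc2* had -0.70 (adjusted p = 0.0162). The call was lost without bone GFP- replicate 2 or bone chip GFP+ (hi) replicate 2 or bone chip GFP- replicate 1 or 3 (adjusted p = 0.0520 to 0.0677). *Ndufa8* had -0.65 (adjusted p = 0.0131). This call was lost without bone chip GFP- replicate 3 (adjusted p = 0.0808). *Cox7c* had -0.59 (adjusted p = 0.0242). The call of *Cox7c* was lost without bone GFP+ (hi) replicate 1 or 2 or bone GFP- replicate 2 or 3 or bone chip GFP+ (hi) replicate 1, 2 or 3 or bone chip GFP- replicate 1 or 3 (adjusted p = 0.0518 to 0.117). *Ndufa3* had 0.54 (adjusted p = 0.0490). It was no longer called without bone GFP+ (hi) replicate 2 or 3 or bone GFP- replicate 1 or bone chip GFP+ (hi) replicate 1 or 2 or bone chip GFP- replicate 2 or 3 (adjusted p = 0.0568 to 0.124) and in 2 of the 6 other settings (adjusted p = 0.0571 to 0.0743). *Cox7b* had 0.58 (adjusted p = 0.0475). *Cox7b* was no longer called without bone GFP+ (hi) replicate 1 or 3 or bone GFP- replicate 1 or bone chip GFP+ (hi) replicate 1 or 2 or bone chip GFP- replicate 2 or 3 (adjusted p = 0.0531 to 0.115) and in 2 of the 6 other settings (adjusted p = 0.0515 to 0.104). *Ndufv3*, *Uqcrq*, *Ndufc2*, *Ndufa8*, *Cox7c*, *Cox6a1*, *Cox7a2* and *Ndufa3* are given here because of these values.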

How the results depend on the processing

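Each comparison was refitted under 17 alternatives and the interaction under 18; levelling by GC content or transcript length was chosen after seeing the data. Of the values for single genes and isoform shares under an alternative, 2863 kept direction and side of the threshold or moved within the spread, 163 were no longer past the threshold, 70 newly passed it, 6 turned and 1 moved. The cause of each change was not tested, except that a left-out library means fewer samples. In fresh bone the 6 higher and 8 lower genes became 4 lower with no low-count filter, 17 higher in a joint fit of 18 libraries (median log2 fold change 0.15) and, with levelling by GC content, a median of -0.10. Without 1 library, 2 to 4 were higher and 4 to 8 lower. In bone chips the 14 higher and 5 lower became 3 lower with DESeq2 and 8 higher and 3 lower in the joint fit, and 9 to 17 higher and 2 to 5 lower without 1 library. In ESC-OB GFP+ cells the 25 higher and 23 lower became 14 and 37 with levelling by GC content (median -0.27) and 44 lower by length (median -0.37). There the sign turned by GC content for *Atp5d* (-0.38), *Atp5e* (-0.094), *Cox8a* (-0.58), *Ndufv1* (-0.42) and *Sdhb* (-0.27), and by length for *Atp5d* (-0.024). The 13 genes with a difference between the bone sources became 8 to 15 without 1 library. The difference in the share of counts on chain genes, GFP+ (hi) minus GFP-, was -0.0284 percentage points in fresh bone and -0.0358 in bone chips without *Col1a1*, *Col1a2* and *Rn45s*, against -0.324 and -0.113. The median of all genes shifted by over 0.1 with DESeq2 in fresh bone (-0.11) and, in the ESC table (0.22), with no filter (0.41), without ESC replicate 2 (0.33) and with levelling by GC content (-0.01) or length (-0.00). With the replicate number as a block, fresh bone had 3 higher and 5 lower, although same-numbered correlations there were -0.01, -0.02 and 0.03. In bone chips, where these correlations were higher, the block ended the calls of *Atp5e* and *Atp5g1* and no other. DESeq2 gave no adjusted p for 2 genes in fresh bone and 1 in the ESC table. Thinning each library to the counts of the smallest kept 12 of the 14 fresh bone calls, 16 of the 19 bone chip calls and 46 of the 48 calls in the ESC table.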
